A study of Mus musculus with 20 samples.

Results

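Amino acids cross membranes through carriers of the solute carrier (SLC) families, and 6 of these families are described here in mouse liver: SLC1, SLC3, SLC7, SLC36, SLC38 and SLC43. The members were taken by name, as every gene of the count table whose symbol is Slc1a, Slc3a, Slc7a, Slc36a, Slc38a or Slc43a followed by a number. The rule found 42 of 46078 genes: 7 of Slc1a, 2 of Slc3a, 15 of Slc7a, 4 of Slc36a, 11 of Slc38a and 3 of Slc43a. Of the 42, 25 had enough counts for a test and 17 were too low to judge.

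The data are counts of poly(A) RNA-seq reads per gene in the livers of 20 adult male mice on a mixed 129/C57BL/6 background, which were adapted to calorie restriction on a control diet and then received their own diet, also calorie restricted, with livers taken 2 days after the shift. Cse (also called Cth) encodes cystathionine γ-lyase, which releases cysteine from cystathionine, so that Cse-/- mice rely on cysteine from food. The groups were Cse+/- mice on the control diet (n = 2), on a diet without cysteine (no Cys, n = 4) and on a diet without tryptophan (no Trp, n = 3), and Cse-/- mice on no Cys (n = 4), no Trp (n = 3) and no Trp with l-buthionine sulfoximine (BSO, n = 4), an inhibitor of glutathione synthesis. The sample labels call the control genotype WT, whereas the study's list of mice gives it as heterozygous, and there was no Cse-/- group on the control diet. The deletion is in the whole body, so that liver, gut and muscle all lack the enzyme. Each library is 1 mouse and is named by its column in the count table (av01 to av22).

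SLC3 proteins are heavy chains: a single-pass glycoprotein that binds a light chain of the SLC7 family and carries it to the cell surface. CD98 heavy chain (Slc3a2) pairs with LAT1, LAT2, y+LAT1, y+LAT2 and xCT, and rBAT (Slc3a1) pairs with b0,+AT. The other families work without a heavy chain: cationic carriers within SLC7, sodium-driven carriers of acidic and small neutral amino acids in SLC1, sodium-coupled glutamine and alanine carriers in SLC38, proton-coupled carriers in SLC36 and facilitators of large neutral amino acids in SLC43. When an amino acid is short, the kinase GCN2 and the transcription factor ATF4 raise many genes of amino acid supply, carriers among them, which is known as the integrated stress response (ISR).

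Counts on genes ranged from 11785740 to 57986121 per library, with a median of 15252745. Cth itself was at 88.4 to 331.9 CPM (counts scaled to the library total with TMM factors) in Cse+/- livers and at 6.37 to 14.4 CPM in Cse-/- livers. Hepatocyte markers were high in every library, with a summed level of 6 genes between 38900 and 107300 CPM. One of the 4 Cse-/- livers on no Cys, av08, stood apart: its summed level of 20 genes of the amino acid response was 1360 CPM, against 2393, 2469 and 2675 CPM in the other 3 and 808 to 1066 CPM in Cse+/- livers on the same diet. Liver av08 was singled out by this response in these same data. Fits without it are therefore not independent support and can favour larger differences on no Cys. Calls of members that changed without av08 are named with the gene, and those that changed without another liver only in part.

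Levels were compared between genes only per length, as TPM (counts per exon length, scaled to the same sum in each library). The sodium-coupled carriers Slc38a3 (SNAT3, which moves glutamine in hepatocytes) and Slc38a4 (SNAT4, a carrier of neutral and cationic amino acids) were the most abundant members, at 864 ± 183 and 640 ± 85.4 TPM (SD, n = 20). The cationic carrier Slc7a2 followed at 191 ± 48.5 TPM, and then Slc38a2 at 60.4 ± 14.7 TPM. Slc38a10 (38.02 ± 8.04 TPM), Slc3a2 (36.03 ± 16.3 TPM) and Slc1a2 (35.4 ± 4.15 TPM) did not differ beyond their spread over the 20 livers, which includes differences between groups. In Cse-/- livers on no Cys the means were 50.9 TPM for Slc38a10, 62.4 TPM for Slc3a2 and 40.3 TPM for Slc1a2. Means of Slc3a2 in the other groups were 26.98 to 32.25 TPM. The light chains were far lower than their heavy chain: Slc7a5 was at 2.51 ± 0.671, Slc7a7 at 2.02 ± 0.428, Slc7a8 at 1.74 ± 0.400 and Slc7a6 at 0.280 ± 0.0999 TPM.

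**Figure D1:**
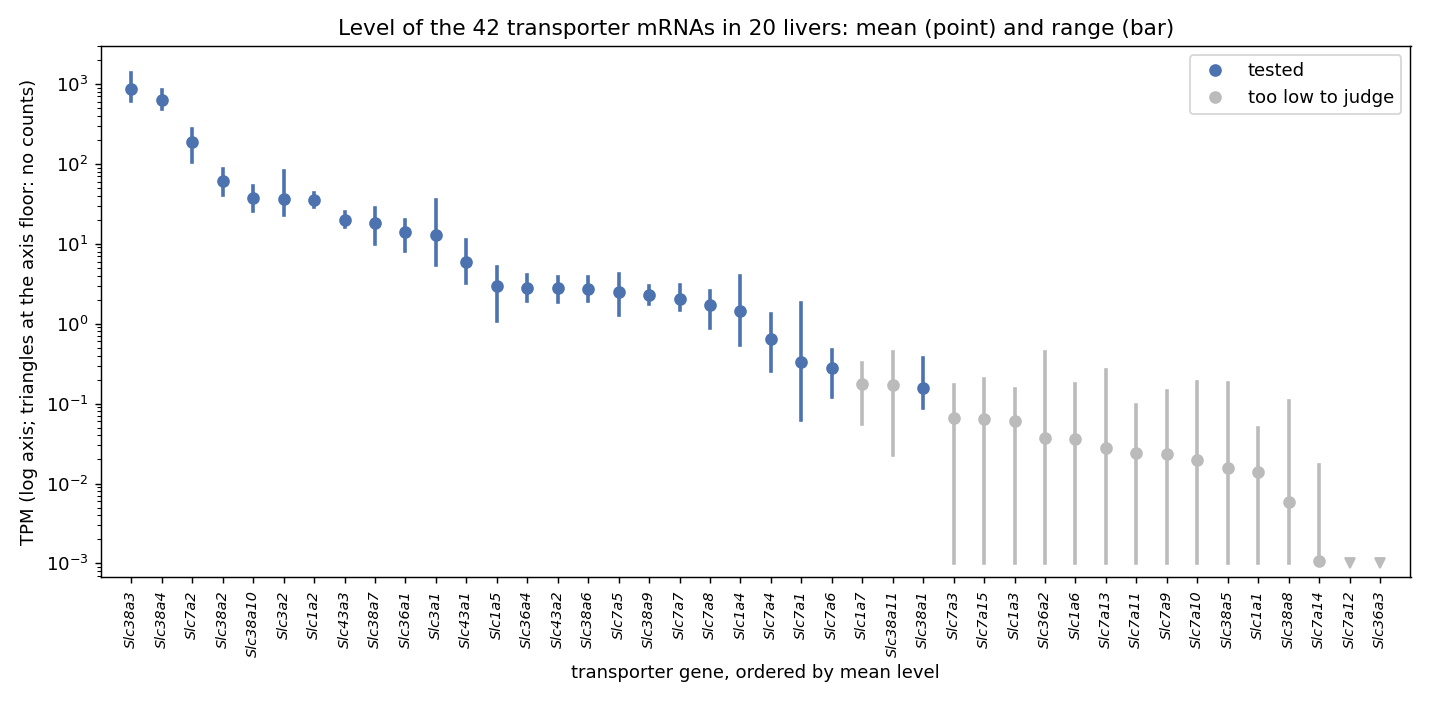
Level of each of the 42 members in TPM on a log axis, ordered by mean; points are the mean and bars the range over 20 livers, with bars that reach 0 drawn to the axis floor. Slc38a3 and Slc38a4 lead at 864 and 640 TPM, and the 17 members in grey were too low to judge.

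The first comparison asks how the genotypes differed when cysteine was left out of the diet. In Cse-/- livers on no Cys, 3 members were higher than in Cse+/- livers on the same diet and 3 were lower. The higher ones were the cationic carrier Slc7a1, the heavy chain Slc3a2 and the glutamine carrier Slc38a7. The lower ones were the cationic-family gene Slc7a4, the heavy chain Slc3a1 and the neutral carrier Slc38a1. Tests used the edgeR quasi-likelihood method with Benjamini-Hochberg adjustment over 14759 genes and a threshold of 0.05, and fold changes are log2 with their standard error (SE). Of all genes tested, 11.6% were called higher and 12.2% lower in this comparison, so that 3 and 3 of 25 members are close to the background. The median log2 fold change of the 25 members was -0.02 and that of all genes -0.01. In bulk tissue, fewer cells of a type and less RNA per cell cannot be told apart.

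Slc3a2, the CD98 heavy chain, was at 42.5, 39.2, 43.7 and 49.2 CPM in Cse+/- livers on no Cys and at 75.1, 100.3, 105.4 and 46.7 CPM in Cse-/- livers on no Cys (av05 to av08). Liver av08 lay within the range of the Cse+/- livers and the other 3 lay above it. The log2 fold change was 0.91 (SE 0.18, adjusted p = 0.00111), and without av08 it was 1.10. Levels in the other Cse-/- livers were 36.04, 42.7 and 45.1 CPM on no Trp and 49.9, 42.9, 49.0 and 42.05 CPM on no Trp with BSO. Cse+/- livers had 41.6, 55.8 and 57.9 CPM on no Trp and 45.6 and 46.0 CPM on the control diet. The gene was thus above 60 CPM in 3 of the 20 livers, all Cse-/- on no Cys.

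Within Cse-/- mice, Slc3a2 was also higher on no Cys than on no Trp, by 0.99 (SE 0.19, adjusted p = 0.00390), and than on no Trp with BSO, by 0.83 (SE 0.18, adjusted p = 0.0200). The first of these calls was lost in a fit of only those 2 groups (adjusted p = 0.0570). The second was lost when any of the livers av06, av07, av09, av11 and av12 was left out, with adjusted p up to 0.0786. Its genotype difference on no Trp was -0.33 (SE 0.20, adjusted p = 0.406). The test of the difference between the 2 genotype differences, the interaction of genotype and diet, gave 1.24 (SE 0.27, adjusted p = 0.0133), and Slc3a2 was the 1 member called in it. Of all genes, 1.67% were called higher and 2.69% lower in the interaction.

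The light chains of Slc3a2 with enough counts for the test, Slc7a5, Slc7a7, Slc7a8 and Slc7a6, did not pass it in any of the 8 comparisons. Slc7a5 (LAT1, a carrier of large neutral amino acids) ranged from 2.31 to 5.84 CPM over all livers, with group means of 3.93 CPM in Cse+/- and 3.92 CPM in Cse-/- livers on no Cys. Slc7a7 (y+LAT1) ranged from 2.20 to 3.66 CPM, Slc7a8 (LAT2) from 2.16 to 5.50 CPM and Slc7a6 (y+LAT2) from 0.221 to 0.807 CPM. Their log2 fold changes between genotypes on no Cys were 0.00 (SE 0.27) for Slc7a5, 0.20 (SE 0.18) for Slc7a7, -0.26 (SE 0.19) for Slc7a8 and -0.49 (SE 0.46) for Slc7a6. Slc7a6 rested on 3 to 34 counts per library, which leaves a wide error.

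Slc7a11 (xCT), the light chain of system xc-, exchanges extracellular cystine for glutamate and so is the route by which many cells outside the liver take up cystine. It was too low to judge, with 43 counts in all 20 libraries. The Cse-/- livers on no Cys had 7, 6, 8 and 5 counts (0.413, 0.440, 0.496 and 0.369 CPM). Cse+/- livers on no Cys had 0, 4, 0 and 1 counts, those on no Trp 0, 1 and 4, and those on the control diet 1 and 0. Cse-/- livers had 1, 1 and 0 counts on no Trp and 1, 0, 2 and 1 on no Trp with BSO.

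The 4 Cse-/- livers on no Cys therefore held 26 of the 43 counts, and each had more than any of the other 16 livers. As CPM of the unscaled totals the group sum was 0.465, with an exact Poisson 95% interval of 0.303 to 0.681, against 0.0919 (0.0298 to 0.214) in Cse+/- livers on no Cys. These intervals cover counting error only. With no filter on low counts, Slc7a11 was higher on no Cys than on no Trp in Cse-/- livers (adjusted p = 0.0283) and than on no Trp with BSO (adjusted p = 0.0226), but not than in Cse+/- livers on no Cys (adjusted p = 0.103). At this depth the gene remains a trace transcript of whole liver, at 0.0241 TPM on average.

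Because ATF4 acts through the C/EBP-ATF response element, the letters of its core, TGATGNAA, were searched on both strands from 250 bases before to 50 after each start in the RefSeq promoter table (GRCm38.p6), together with TGACNNNGC, the core of the antioxidant response element that NRF2 binds. The table held 31 of the 42 members, with 42 starts, and no member had a match of both motifs. TGATGNAA was found at 3 of the 31 members, Slc7a11, Slc1a4 and Slc7a7, and at 4.51% of the 27025 genes in the table; by start it was found at 4 of 42 against 3.97% of all 32851. TGACNNNGC was found at 5 of the 31, Slc7a1, Slc7a6, Slc36a1, Slc38a2 and Slc43a1, and at 14% of all genes; by start it was found at 6 of 42 against 12.4%. Of the 6 members called between genotypes on no Cys, the table held 4, and none of these had TGATGNAA in the window, which says only that these letters are not in these 300 bases. A match is a description and not evidence of binding.

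The stretches below are shown because they hold the matches of the cystine carrier and of the study's stress-response carriers, or lack them. Each is 5′ to 3′ on the strand of the gene, and capitals mark the motif. The Slc7a11 stretch (chr3:50443614-50443733, minus strand) is the 120 bases before the start and holds TGATGNAA once on each strand. That of Slc3a2 (chr19:8713898-8714017, minus strand) and the 120 bases before the downstream start of Slc7a1 (chr5:148392816-148392935, minus strand) hold neither motif, and those before its upstream start (chr5:148399905-148400024, minus strand) hold TGACNNNGC on the opposite strand. The Slc1a4 stretch (chr11:20332699-20332728, minus strand) is a window of 30 bases around a TGATGNAA match on the opposite strand that spans the start.
Slc7a11: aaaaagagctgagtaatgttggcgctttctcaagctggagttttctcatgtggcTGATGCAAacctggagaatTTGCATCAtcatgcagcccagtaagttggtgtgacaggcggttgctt
Slc3a2: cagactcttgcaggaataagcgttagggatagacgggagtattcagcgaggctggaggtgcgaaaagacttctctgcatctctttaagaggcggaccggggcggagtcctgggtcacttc
Slc7a1 upstream: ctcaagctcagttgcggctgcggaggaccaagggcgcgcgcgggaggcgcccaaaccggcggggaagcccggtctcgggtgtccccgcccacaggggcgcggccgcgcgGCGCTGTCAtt
Slc7a1 downstream: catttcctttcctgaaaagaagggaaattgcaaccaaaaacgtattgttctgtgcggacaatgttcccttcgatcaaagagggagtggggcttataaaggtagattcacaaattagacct
Slc1a4: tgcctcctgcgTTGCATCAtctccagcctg

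Slc3a1 (rBAT), the heavy chain of the kidney and gut cystine carrier, was the member that differed between genotypes on both diets. It was at 35.9, 16.2, 20.7 and 11.96 CPM in Cse+/- livers on no Cys and at 10.7, 6.09, 10.5 and 13.3 CPM in Cse-/- livers. On no Trp it was at 13.9, 21.7 and 13.9 CPM in Cse+/- livers and at 5.48, 6.92 and 5.92 CPM in Cse-/- livers. The groups overlapped on no Cys, where 1 Cse-/- liver was above the lowest Cse+/- liver, and did not overlap on no Trp. Slc3a1 fell by 1.05 on no Cys (SE 0.26, adjusted p = 0.00672) and by 1.45 on no Trp (SE 0.31, adjusted p = 0.0166) on the log2 scale.

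The fall on no Cys kept its call without the highest liver, av01, at -0.68 and adjusted p = 0.0309, and that on no Trp lost it without av19, at -1.19 and adjusted p = 0.0776. The interaction was 0.40 (SE 0.40, adjusted p = 0.637). Cse-/- livers on no Trp with BSO had 8.18, 9.24, 8.21 and 7.24 CPM and Cse+/- livers on the control diet 14.8 and 13.5 CPM. All 7 Cse-/- livers without tryptophan were thus below all 9 Cse+/- livers. Exons of Prepl overlap 26.5% of the exon bases of Slc3a1, and Prepl was at 18.9 to 21.1 CPM in Cse+/- and 19.3 to 22.6 CPM in Cse-/- livers on no Cys. Its usual partner light chain, Slc7a9 (b0,+AT), was too low to judge, with at most 0.147 CPM.

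Of the cationic carriers, Slc7a1 (CAT1) imports arginine and lysine in most tissues and is low in normal liver, where Slc7a2 (CAT2) takes that role. Slc7a1 was at 0.721, 0.423, 0.389 and 0.424 CPM in Cse+/- livers on no Cys, from 5 to 8 counts each, and at 2.71, 1.91, 7.70 and 1.48 CPM in Cse-/- livers, from 20 to 124 counts. All Cse-/- livers were above all Cse+/- livers, and av07 was well above the other 3. The log2 fold change was 2.84 (SE 0.49, adjusted p = 4.47e-04), the largest among the 25 members, and it was 2.096 without av07.

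On no Trp Slc7a1 was at 1.14, 0.702 and 0.654 CPM in Cse+/- livers and at 1.86, 1.81 and 1.82 CPM in Cse-/- livers. These groups did not overlap either, but the difference of 1.19 (SE 0.50) did not pass the test (adjusted p = 0.205). On no Trp with BSO it was at 1.17, 2.08, 0.842 and 1.22 CPM and on the control diet at 0.892 and 0.348 CPM. Among Cse-/- livers the no-Cys group exceeded no Trp by 0.93 (SE 0.43, adjusted p = 0.175; 0.17 without av07) and no Trp with BSO by 1.41 (SE 0.40, adjusted p = 0.0611). The latter was 0.66 without av07 (adjusted p = 0.282) and 1.66 without either av08 (adjusted p = 0.0133) or av10 (adjusted p = 0.0478), and it was called in DESeq2 (adjusted p = 0.0221) and with no filter on low counts (adjusted p = 0.0136). The interaction was 1.65 (SE 0.72, adjusted p = 0.211) and 0.91 without av07 (adjusted p = 0.389), so that a difference of the genotype effect between diets was not shown for Slc7a1.

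Slc7a2 was the abundant cationic carrier, at 434 to 1049 CPM. Cse-/- livers on no Cys had 888, 821, 803 and 979 CPM and those on no Trp 434, 761 and 537 CPM, so that the groups did not overlap. The log2 fold change was 0.60 (SE 0.16, adjusted p = 0.0260). The call was lost without av05, av14 or av16, with adjusted p up to 0.148, and in a fit of only these groups. Cse+/- livers were at 786, 582, 844 and 561 CPM on no Cys and at 537, 541 and 642 CPM on no Trp, and those on the control diet, at 941 and 1049 CPM, included the highest of all. Cse-/- livers on no Trp with BSO were at 726.5, 718, 785 and 766 CPM. Between genotypes on no Cys the difference was 0.33 (SE 0.15, adjusted p = 0.114).

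Slc7a4 belongs to the cationic branch by sequence. It was at 2.43, 1.83, 1.48 and 1.63 CPM in Cse+/- livers on no Cys and at 0.767, 0.587, 0.931 and 0.738 CPM in Cse-/- livers, with no overlap and 8 to 27 counts a library. It fell by 1.26 on the log2 scale (SE 0.30, adjusted p = 0.00419). Levels were also low in both genotypes on no Trp, at 0.497, 0.952 and 0.560 CPM in Cse+/- and 0.863, 0.873 and 0.622 CPM in Cse-/- livers. Livers on no Trp with BSO had 1.12, 1.21, 0.702 and 0.544 CPM, and control-diet Cse+/- livers had 2.50 and 2.58 CPM, the highest of the 20. The Cse+/- group on no Trp differed from that on the control diet by -1.82 (SE 0.34), with adjusted p = 0.0511, and was called in DESeq2 (adjusted p = 0.00508) and with RLE factors (adjusted p = 0.0470). The interaction was -1.39 (SE 0.45, adjusted p = 0.0828), and it was called after thinning to equal depth (-1.97, adjusted p = 0.0316) and without av19 (-1.80, adjusted p = 0.0445). Exons of P2rx6 overlap 13.3% of Slc7a4 exon bases, and P2rx6 was at most 0.293 CPM in any liver on no Cys. Slc7a3, the remaining cationic carrier, was too low to judge (at most 0.236 CPM).

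**Figure D2:**
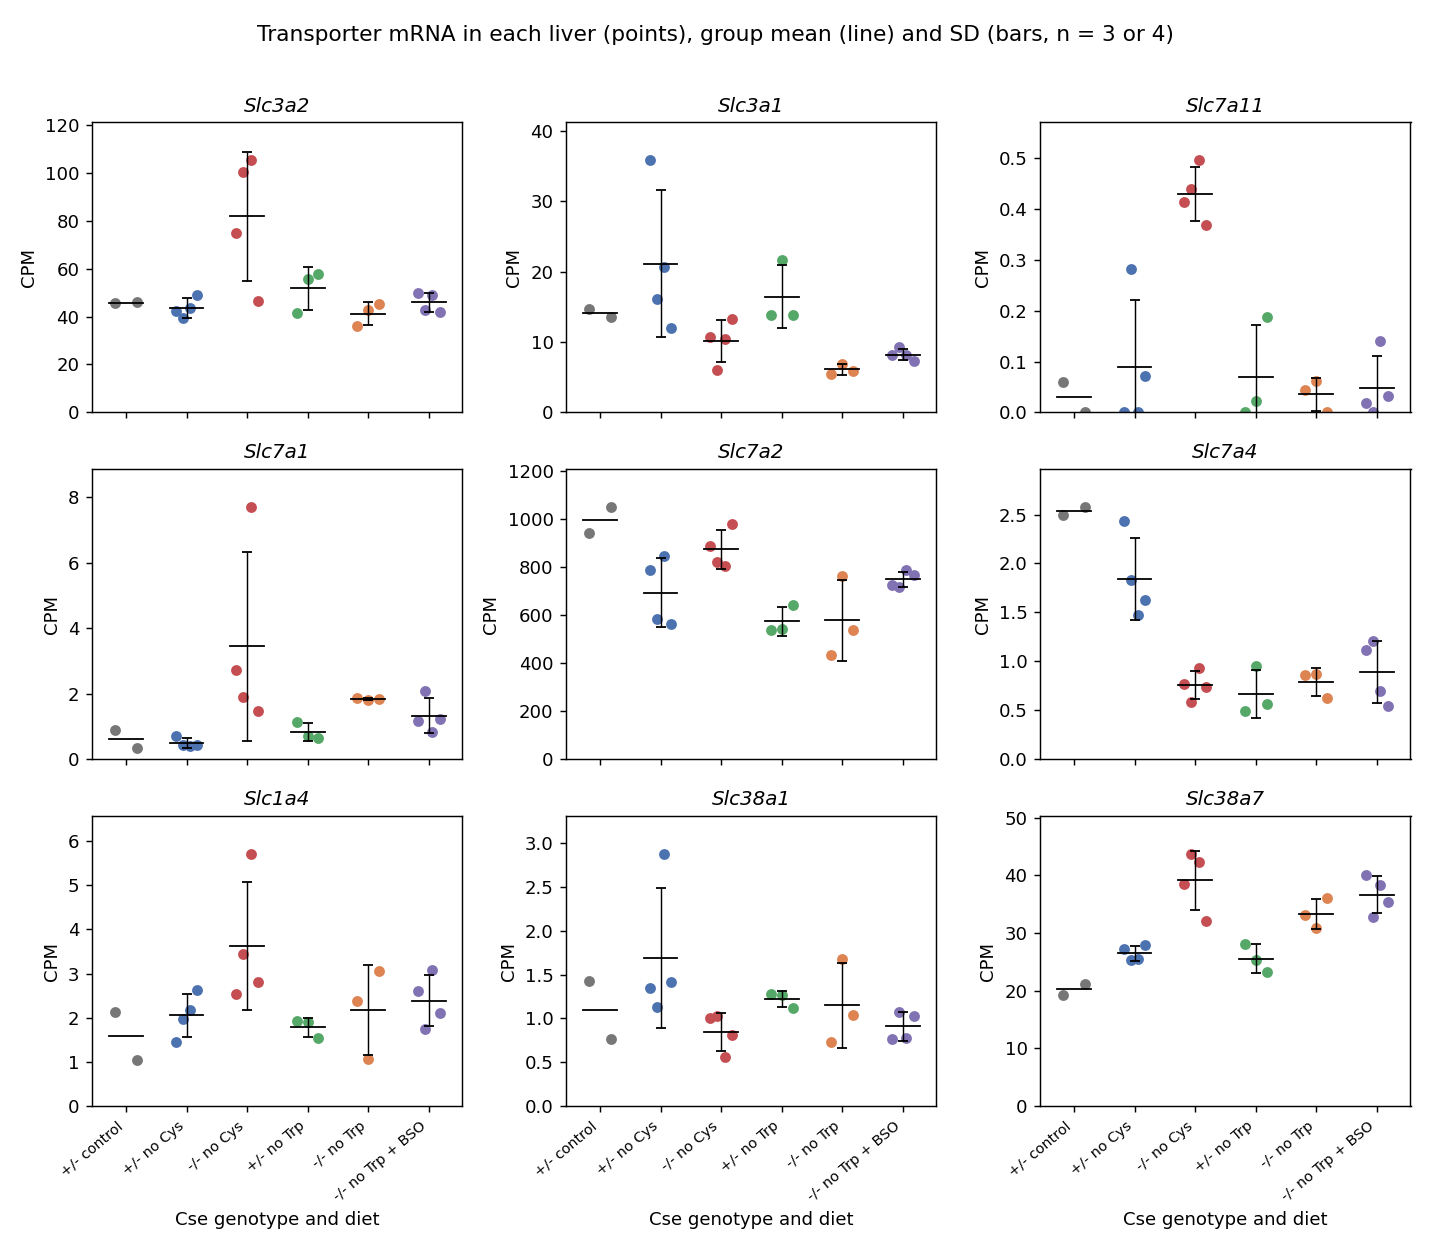
CPM of 9 members in each liver, by Cse genotype and diet; points are livers, lines group means and bars SD (groups of 3 or 4). Slc3a2 exceeds 60 CPM in 3 livers, all Cse-/- on no Cys, while Slc3a1 is below 10 CPM in every Cse-/- liver without tryptophan.

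In the SLC1 family, Slc1a4 (ASCT1) carries alanine, serine and cysteine. It was at 1.44, 1.98, 2.18 and 2.62 CPM in Cse+/- livers on no Cys and at 2.54, 3.45, 5.71 and 2.80 CPM in Cse-/- livers, with av07 the highest and av05 inside the Cse+/- range. The difference of 0.81 (SE 0.32) did not pass the test (adjusted p = 0.0696), and it did in DESeq2 (adjusted p = 0.0474). Over the settings tried its adjusted p ran from 0.0415 without av15 to 0.275 without av07. Other groups had 2.37, 1.06 and 3.07 CPM (Cse-/-, no Trp), 2.62, 1.74, 3.09 and 2.11 CPM (Cse-/-, no Trp with BSO), 1.92, 1.90 and 1.54 CPM (Cse+/-, no Trp) and 2.14 and 1.04 CPM (control diet). The study named Slc7a1, Slc1a4 and Slc3a2 as stress-response genes of liver from data that include these mice, so that their direction here is not independent evidence.

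Slc1a5 (ASCT2, a carrier of glutamine and other neutral amino acids) ranged from 1.87 to 9.72 CPM and Slc1a2 (a glutamate carrier of perivenous hepatocytes) from 164.7 to 223 CPM. Neither was called in any comparison of all livers. On no Trp Slc1a5 was at 8.81, 8.04 and 9.72 CPM in Cse+/- livers and at 7.98, 1.87 and 5.59 CPM in Cse-/- livers. That difference was -0.75 (SE 0.29, adjusted p = 0.1705), and it was called without av14 (-1.22, adjusted p = 0.0306). Without av15, Slc1a5 was called lower on no Cys than on no Trp in Cse-/- livers (-0.82, adjusted p = 0.0116). Slc1a2 differed between genotypes on no Cys by 0.03 (SE 0.09), and Slc1a5 by -0.38 (SE 0.28). Slc1a1, Slc1a3, Slc1a6 and Slc1a7 were too low to judge, at no more than 0.180, 0.517, 0.178 and 0.498 CPM.

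In the SLC38 family, Slc38a7 (SNAT7, which exports glutamine from lysosomes) differed little within groups. It was at 27.2, 25.4, 25.4 and 27.9 CPM in Cse+/- livers on no Cys and at 38.4, 43.7, 42.3 and 32.2 CPM in Cse-/- livers, all above the Cse+/- range, with av08 the lowest. The log2 fold change was 0.56 (SE 0.10, adjusted p = 4.89e-04). On no Trp the groups did not overlap either, at 28.1, 25.3 and 23.3 CPM in Cse+/- and 33.1, 30.8 and 36.05 CPM in Cse-/- livers. That difference, 0.38 (SE 0.11), had adjusted p = 0.0722 and was called in DESeq2 and without av08, at adjusted p = 0.0375 and 0.0399. Livers on no Trp with BSO had 40.1, 32.8, 38.3 and 35.3 CPM, and control-diet Cse+/- livers had the lowest levels, 19.3 and 21.2 CPM. The interaction was 0.18 (SE 0.15, adjusted p = 0.549). Without av08, Slc38a7 was also called higher on no Cys than on no Trp in Cse-/- livers (0.31, adjusted p = 0.0431).

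Slc38a1 (SNAT1, a glutamine carrier that is low in hepatocytes) was at 1.35, 1.13, 2.88 and 1.42 CPM in Cse+/- livers on no Cys and at 1.00, 1.03, 0.558 and 0.812 CPM in Cse-/- livers. The groups did not overlap, and av03 was high among the Cse+/- livers. Slc38a1 fell by 0.99 on the log2 scale (SE 0.34, adjusted p = 0.0382). The call was lost without av03 (-0.61, adjusted p = 0.194) and also without av05, av07 or av08, with no filter on low counts, after thinning to equal depth and in a fit of the compared groups alone. Other livers had 0.734, 1.68 and 1.04 CPM (Cse-/-, no Trp), 0.768, 1.07, 0.772 and 1.02 CPM (Cse-/-, no Trp with BSO), 1.28, 1.27 and 1.12 CPM (Cse+/-, no Trp) and 1.43 and 0.766 CPM (control diet). Markers of other cells moved with this comparison: all 3 red-cell genes, 2 of 5 cholangiocyte genes, 3 of 6 hepatocyte genes, 2 of 5 stellate cell genes and 1 of 4 tested lymphocyte genes were lower in Cse-/- livers on no Cys, where 12.2% of all genes tested were lower. Another hepatocyte gene, Cps1, was higher (0.58, adjusted p = 0.0457). Summed over every gene of a list, whether called or not, levels in Cse-/- against Cse+/- livers were 31.7 to 55.04 against 87.5 to 162 CPM for red cells, 16.4 to 28.6 against 45.9 to 57.9 CPM for cholangiocytes and 38900 to 66240 against 82790 to 106600 CPM for hepatocytes. For stellate cells the sums were 201.4 to 238.5 against 237.9 to 279 CPM, and for lymphocytes 6.76 to 7.77 against 8.63 to 12.5 CPM. Of 5 endothelial genes 1 was higher (Lyve1, 1.152, adjusted p = 2.20e-04) and none lower, and of 6 Kupffer cell genes none was called. The part of these cells in the falls of Slc38a1, Slc3a1 and Slc7a4 was not tested.

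The most abundant member, Slc38a3, was at 2332, 2400, 2141 and 1969 CPM in Cse+/- livers on no Cys and at 1858, 1508, 1539 and 2821 CPM in Cse-/- livers. Liver av08 was the highest of all 20 and the other 3 Cse-/- livers were below every Cse+/- liver of that diet. The log2 fold change was -0.19 (SE 0.15, adjusted p = 0.387) with av08 and -0.44 (adjusted p = 0.00876) without it. The interaction of Slc38a3 passed the test only in the fit that left out av08 (-0.59, adjusted p = 0.0327). Slc38a2 (SNAT2), a known target of amino acid shortage in cultured cells, was at 285, 271, 288 and 248 CPM in Cse+/- and 266, 287, 204.5 and 142 CPM in Cse-/- livers on no Cys, with av08 the lowest of the 20. Its difference was -0.28 (SE 0.18, adjusted p = 0.267), so that it was not called higher in Cse-/- livers on no Cys.

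Without av08, Slc38a2 was higher on no Cys than in Cse-/- livers on no Trp (0.51, adjusted p = 0.0468) and on no Trp with BSO (0.52, adjusted p = 0.0440). Slc38a4 ranged from 926 to 1396 CPM, Slc38a10 from 73.6 to 123.5 CPM, Slc38a9 (a lysosomal arginine sensor) from 13.5 to 19.6 CPM and Slc38a6 from 6.96 to 11.2 CPM, with no call in any comparison. Of these Slc38a10 came nearest, at 0.32 (SE 0.12, adjusted p = 0.0556) between genotypes on no Cys, and it was called in DESeq2 (adjusted p = 0.0437). Slc38a5, Slc38a8 and Slc38a11 were too low to judge, at no more than 0.180, 0.148 and 0.855 CPM.

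In the SLC36 family, Slc36a1 (PAT1, a proton-coupled carrier of lysosomes) ranged from 22.4 to 44.5 CPM and Slc36a4 from 5.51 to 12.5 CPM. Their differences between genotypes on no Cys were 0.05 (SE 0.13) and -0.13 (SE 0.19). On no Trp Slc36a1 differed by 0.43 (SE 0.15, adjusted p = 0.1285), and this was called without av17 (0.60, adjusted p = 0.03475). Slc36a2 had 26 counts, in 3 livers on no Trp only (0.647, 0.284 and 0.159 CPM in av14, av17 and av19), and was too low to judge, as was Slc36a3, with no counts in any liver. A count of 0 allows up to 0.27 CPM in the library with the smallest scaled total (3 counts, counting error only).

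In the SLC43 family, which is named for carriers of large neutral amino acids, Slc43a1 (LAT3) ranged from 7.04 to 29.4 CPM, Slc43a2 (LAT4) from 7.86 to 16.8 CPM and Slc43a3, which carries purine bases instead, from 28.2 to 51.8 CPM. None was called in the 8 comparisons. On no Cys the genotypes differed by -0.10 (SE 0.28), -0.04 (SE 0.15) and -0.02 (SE 0.10). Slc43a1 was at 12.3, 11.4, 11.7 and 10.8 CPM in Cse+/- livers on no Cys and at 19.9 and 28.5 CPM on the control diet, a difference of -1.07 (SE 0.32, adjusted p = 0.0847). In Cse-/- livers on no Cys it was at 9.27, 7.04, 9.37 and 17.3 CPM, with av08 again the highest. Without av08, Slc43a1 was lower on no Cys than on no Trp in Cse-/- livers (-0.95, adjusted p = 0.0294) and Slc43a3 was higher (0.26, adjusted p = 0.0389). Slc43a3 was then also higher than on no Trp with BSO (0.36, adjusted p = 0.00796). In comparisons of Cse+/- livers av08 enters only through the shared gene filter, scaling, estimate of spread and adjustment over genes. Leaving it out there called Slc43a1 (-1.07, adjusted p = 0.0465) and Slc43a3 (-0.41, adjusted p = 0.0152) lower on no Cys than on the control diet.

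The remaining SLC7 genes were too low to judge: Slc7a10 (at most 0.173 CPM), Slc7a12 (no counts), Slc7a13 (0.278 CPM), Slc7a14 (0.0702 CPM) and Slc7a15 (0.284 CPM).

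**Figure D3:**
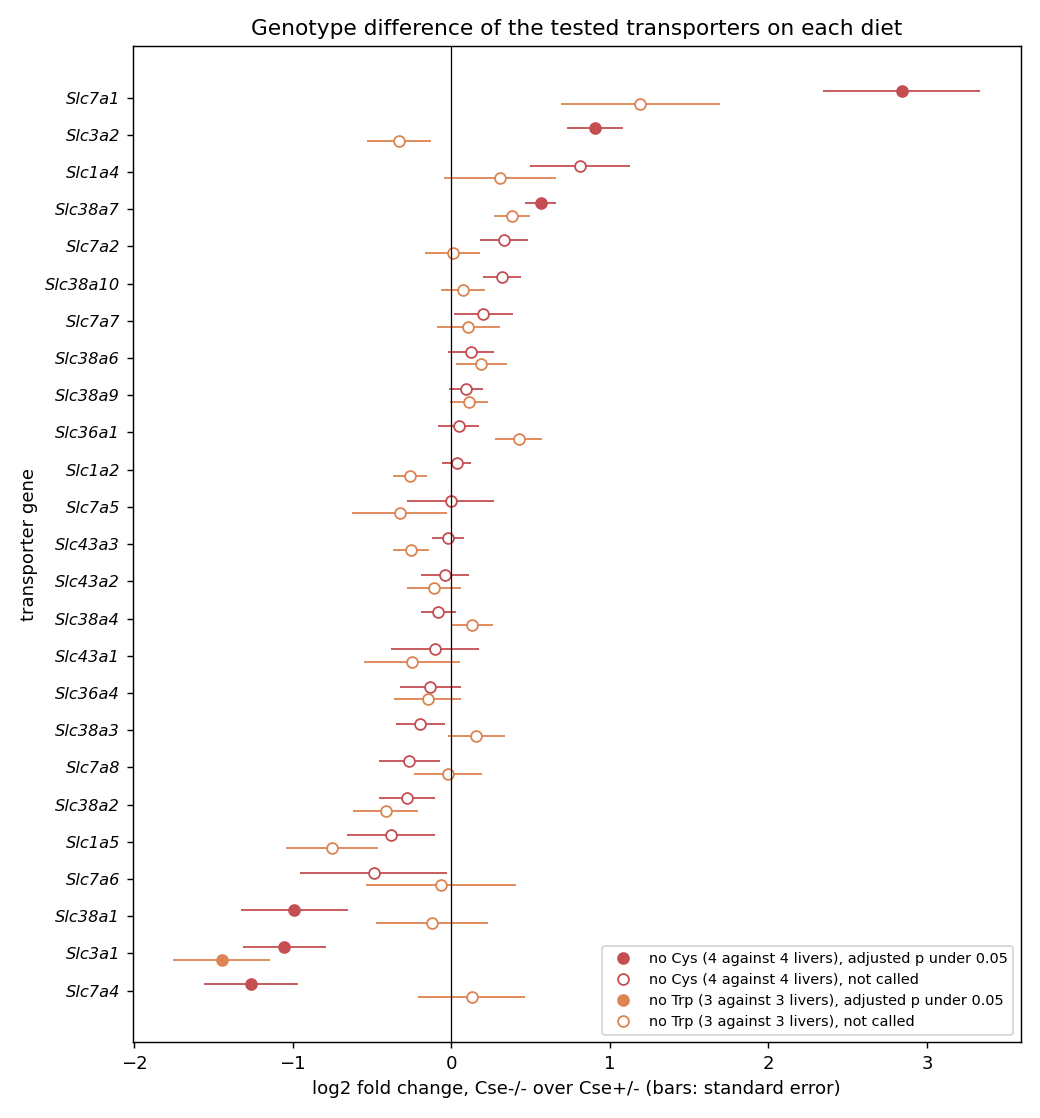
Log2 fold change of the 25 tested members, Cse-/- over Cse+/-, on no Cys (red) and no Trp (orange), with standard errors; filled points have an adjusted p under 0.05. On no Cys 6 members are filled, from Slc7a1 at 2.84 to Slc7a4 at -1.26, and on no Trp only Slc3a1, at -1.45.

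The other comparisons called few members. Between genotypes on no Trp, 0 of 25 were higher (1.4% of all genes) and 1 was lower, Slc3a1 (1.24% of all genes). DESeq2 called 2 members there, and 729 of all 14759 genes. At an unadjusted p under 0.05 there were 7 members. The share of all genes at that unadjusted p is not given here or below, so that such counts have no background. In Cse-/- livers, no Cys against no Trp gave 2 higher members, Slc3a2 and Slc7a2 (5.05% of all genes), and none lower (5.35%). No Cys against no Trp with BSO gave 1 higher, Slc3a2 (1.33%), and none lower (1.42%). The comparisons within Cse-/- mice share the no-Cys or the no-Trp livers and are not independent.

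The addition of BSO asks what changes when glutathione synthesis is blocked. No member was called when BSO was added to no Trp in Cse-/- mice, where 0.488% of all genes were higher and 0.305% lower. With edgeR 1 member had an unadjusted p under 0.05, and DESeq2 called 0 members and 356 of all 14759 genes. Slc3a2 differed by 0.15 (SE 0.19) and Slc7a1 by -0.49 (SE 0.44), and the median over members was -0.02. Of 12 NRF2 genes, whose products answer oxidative stress, 5 were higher in the same comparison and none was lower.

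In Cse+/- mice, leaving out cysteine called no member with edgeR (0.989% of all genes higher, 1.19% lower), with 7 at an unadjusted p under 0.05. Of all 14759 genes DESeq2 called 607, and 3 members were among them. Slc36a1 was higher (0.55, adjusted p = 0.0354), and Slc43a1 (-1.06, adjusted p = 0.0316) and Slc43a3 (-0.41, adjusted p = 0.0488) were lower. Leaving out tryptophan called none either (0.00678% and 0.0407% of all genes), with 6 at an unadjusted p under 0.05. Here DESeq2 called 60 of all 14759 genes and 2 members, both lower: Slc7a4 (-1.82, adjusted p = 0.00508) and Slc7a2 (-0.79, adjusted p = 0.0253). Both comparisons rest on 2 control livers.

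**Figure D4:**
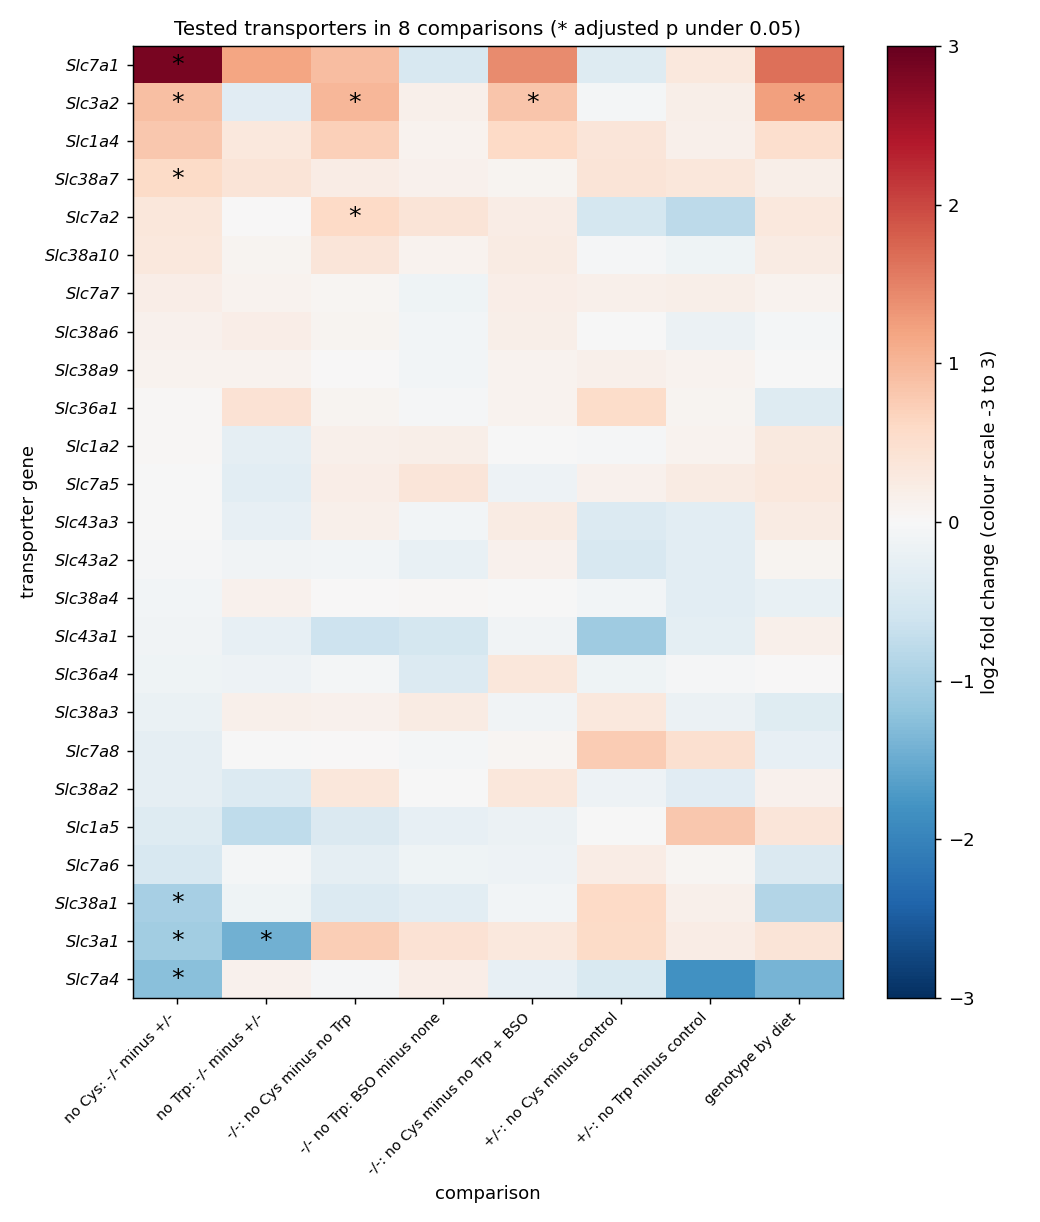
Log2 fold change of the 25 tested members in 8 comparisons, on a colour scale from -3 to 3, with a star at an adjusted p under 0.05. Slc3a2 has 4 of the 11 stars, in each comparison that sets Cse-/- no-Cys livers against another group and in the interaction; the BSO column and both control-diet columns have none.

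Other genes of amino acid supply were counted from lists. Of 19 amino acid carriers and helpers outside the 6 families, 10 were tested, and 2 were higher in Cse-/- than Cse+/- livers on no Cys: Slc6a9 (the glycine carrier GLYT1; 1.10, SE 0.21, adjusted p = 9.24e-04) and Mfsd12 (which brings cysteine into lysosomes; 0.96, SE 0.15, adjusted p = 1.29e-04). These 2 of 10 are close to the 11.6% of all genes called higher. None of the 10 was lower, and Ctns, the lysosomal cystine exporter, differed by 0.18 (SE 0.13, adjusted p = 0.321). Of 20 genes of the GCN2 and ATF4 pathway, 12 were higher and 2 lower, against 11.6% and 12.2% of all genes. The median of the 20 was 1.20 on the log2 scale. Well above it, the asparagine synthetase Asns rose by 4.46 (SE 0.51) and the serine synthesis gene Psat1 by 5.83 (SE 0.40). The highest transporter rose by 2.84.

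Of the same 20 genes, 3 were higher and none lower between genotypes on no Trp, where 1.4% and 1.24% of all genes were called, and 6 were higher and none lower on no Cys than on no Trp in Cse-/- livers, where 5.05% and 5.35% were. Of the 12 NRF2 genes, 7 were higher and 1 lower between genotypes on no Cys, against 11.6% and 12.2% of all genes, and none was called on no Trp. Sets of this kind were chosen for what their genes are known to do, with earlier results of these data known, and were not tested as sets.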

How the data were processed

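Livers of 20 mice of the second liver experiment were analysed. The authors aligned reads with HISAT2 2.1.0 to GRCm38 and counted them with HTSeq 0.11.0; the deposited values are raw counts per Ensembl gene. The annotation release and strand setting are not given in the sources used here. Columns were matched to groups through the study's list of mice, and 1 of 21 columns, whose condition the list does not give, was not used. Symbols, coordinates and exon lengths come from GENCODE M21 (GRCm38), and promoters from RefSeq.

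Members that filterByExpr dropped (at a minimum count of 10 and total of 15) were too low to judge. Counts were scaled with TMM factors, and the 6 group means were fitted together in edgeR 4.0.16 (R 4.3.3) by quasi-likelihood. Two-sided p-values were adjusted over 14759 genes, and the SE is the log2 fold change over the square root of F. TPM were computed from counts and union exon length. Reads in overlapping exons may be lost or misplaced. Pairs of replicate libraries differed by more than counting noise (chi-square per gene 9.60 to 64.2 over 25 pairs). The fit was tested on simulated data.

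Every member is named, with values per liver for those called in a comparison of groups of at least 3 and for Slc7a11, Slc3a2, Slc7a1 and Slc1a4. Values per liver of Slc1a5, Slc38a2, Slc38a3 and Slc43a1 and the promoter stretches were added after they were seen. The members and lists were chosen with earlier results of these data known. Alternatives were DESeq2 1.42.0, RLE factors, no filter, a mean of at least 1 CPM, only the groups compared, thinning to 11785740 counts and leaving out each library.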

Additional observations from a re-analysis of the deposited data

Results flagged for a closer look

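The genotype difference of Slc3a2 was not the same on the 2 diets, by the test of the difference itself: 0.91 on no Cys and -0.33 on no Trp, an interaction of 1.24 on the log2 scale (edgeR, adjusted p = 0.0133).

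In 7 of 75 sets of 4 livers (25 members in 3 groups), 1 liver was far from the other 3; chance gives about 1 in 20. In Cse-/- livers on no Cys these were Slc43a3 in av08 (28.2 CPM, the others 40.8 to 41.1) and Slc1a2 in av06 (169 CPM, the others 205.5 to 210.5). In Cse+/- livers on no Cys they were Slc38a1 in av03 (2.88 CPM, the others 1.13 to 1.42), Slc7a1 in av01 (0.721 CPM, the others 0.389 to 0.424) and Slc36a4 in av04 (6.01 CPM, the others 8.92 to 9.33). With BSO they were Slc7a8 in av11 (2.67 CPM, the others 3.68 to 3.77) and Slc38a9 in av10 (14.7 CPM, the others 15.9 to 16.1).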

How the results depend on the processing

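Of 200 pairs of a member and a comparison, 11 were called, and none of these changed sign in 26 alternatives. Uncalled values changed sign in 71 pairs when 1 library was left out and in 15 pairs under another setting. The 6 calls between genotypes on no Cys stayed within 1.5 times in number under every setting. Brackets give the genes called of all genes tested in that setting. Between genotypes on no Trp the count was 1, and 2 in DESeq2 (729 of 14759). For no Cys against no Trp in Cse-/- it was 2. With no filter it was 3 (1443 of 27464), and in a fit of only those groups 0 (521 of 13661). Against no Trp with BSO it was 1, and 2 in DESeq2 (867 of 14759) and 3 with no filter (582 of 27464). In Cse+/- mice, no Cys against the control diet gave 0, and 3 in DESeq2 (607 of 14759). It gave 1 with no filter (486 of 27464) and 1 with only the groups compared (138 of 13794). No Trp against the control diet gave 0, and 2 in DESeq2 (60 of 14759). With RLE factors it gave 1 (9 of 14759), and at a mean of 1 CPM 1 (8 of 12577). With no filter it gave 2 (71 of 27464), and after thinning 1 (9 of 14213). The interaction gave 1, and 2 after thinning (621 of 14213). Causes were not tested.

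With 1 library left out, the counts ranged from 0 (without av19) to 2 between genotypes on no Trp, 1 to 6 (without av08) for no Cys against no Trp, 0 to 4 (without av08) against no Trp with BSO, 0 to 2 (without av08) for no Cys and 0 to 1 for no Trp against the control diet, and 1 to 2 for the interaction. Where 1 control liver remained, its spread was taken from the other groups. Counts over all genes moved too. Without av08, 1855 of 14740 genes were called for no Cys against no Trp and 1027 against no Trp with BSO. With all livers these were 746 higher and 789 lower, and 196 higher and 210 lower, of 14759. For no Cys against the control diet 380 were called without av08, against 146 higher and 176 lower. Without av19, 120 of 14711 were called between genotypes on no Trp, against 206 higher and 183 lower.

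Between genotypes on no Cys, Slc43a3 was 0.024 after thinning and Slc7a5 0.0033 with no filter, both reversed. Leave-one-out ranges that crossed 0 were -0.036 to 0.11 for Slc1a2, -0.045 to 0.14 for Slc36a1, -0.19 to 0.0064 for Slc38a4, -0.42 to 0.044 for Slc43a1, -0.16 to 0.055 for Slc43a2, -0.083 to 0.095 for Slc43a3 and -0.24 to 0.16 for Slc7a5. For Slc1a4 they were -0.026 to 0.60 between genotypes on no Trp, -0.20 to 0.42 for BSO, -0.052 to 0.98 for no Cys and -0.25 to 0.78 for no Trp against the control diet. For Slc7a1 they were -0.89 to 0.46 and -0.16 to 1.19 for the last 2.

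No paired analysis was possible because the columns carry no replicate numbers. Depth limits Slc7a1, Slc7a4, Slc7a6 and Slc38a1, each at under 10 counts in some library, and leaves the 17 untested members undecided. With no filter, Slc38a11 was called lower in Cse-/- livers on no Cys (-1.83, adjusted p = 0.0450).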
